A study of Homo sapiens with 12 samples.

Results

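Genes near JAK2 on the short arm of chromosome 9, in and around band 9p24, were examined for their level in HEL cells and for their change when JAK2 was reduced. The 10 genes were RFX3, SMARCA2, VLDLR, KANK1, SLC1A1, CDC37L1, RCL1, RANBP6, KDM4C and GLDC. They were taken by position and by name, JAK2 itself was left out, and every probe set that the array annotation gives to one of them alone was used. This gave 10 genes with 20 probe sets, of 11940 genes and 22406 probe sets in the series, and 5 of the 10 genes had more than 1 probe set. RFX3 was chosen on its fall in these same arrays, so its change with JAK2 knockdown is given as a description with no test. The other 9 genes were named for their place on the chromosome, with earlier results of these data known, and were tested. They are not all the measured genes of the interval, and the 12 others are described further below.

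HEL is a human acute myeloid (erythroid) leukaemia line in which JAK2 carries the activating V617F change, homozygous per the labels, and every group shares this genotype. Cells received lentivirus made from a pLKO vector with puromycin selection, in 4 groups of 3 arrays. Jak2-9 and Jak2-10 are 2 hairpin RNAs against JAK2, GFP is a control that the labels call both a vector and a hairpin, and Luc is a hairpin against luciferase. All groups come from 1 cell line, no time after infection was stated, and nothing says that the numbered replicates were separate cultures. The p-values therefore rest on array-to-array spread, part or all of which may be technical. DNA copy number was not measured. In bulk RNA from a culture, fewer cells with a transcript and less of it per cell cannot be told apart.

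JAK2 is a tyrosine kinase bound to cytokine receptors, and it activates STAT transcription factors. Genes of 9p24 can be gained together with it: in Hodgkin and primary mediastinal B-cell lymphomas, gains of the band raise JAK2 with neighbours that include KDM4C and the genes of the PD-1 ligands. Neighbours on a chromosome need not share a function. Among the 10 are a transcription factor and 2 chromatin enzymes (RFX3, SMARCA2, KDM4C), proteins of import, folding and ribosome assembly (RANBP6, CDC37L1, RCL1), and membrane, adaptor and metabolic proteins of other tissues (VLDLR, SLC1A1, KANK1, GLDC).

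In the order of the RefSeq gene table, 7 of the genes lie on the telomeric side of JAK2 and 3 on the centromeric side. RCL1 is its immediate protein-coding neighbour, CDC37L1 is 3 protein-coding genes away, SLC1A1 6, RFX3 8, VLDLR 11, SMARCA2 12 and KANK1 18. On the other side RANBP6 is 12 genes away, GLDC 16 and KDM4C 17. Between KANK1 and KDM4C, both included, the table holds 36 protein-coding genes, of which 23 were measured.

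The 250 bases upstream of the annotated start are shown for RFX3 and RANBP6. At their brightest probe sets, these 2 neighbours had no overlap between knockdown and control arrays. RFX3 was chosen on its fall, and 2.13% of all probe sets had every knockdown array below every control array. The sequences are from RefSeq (GRCh38.p14), on the minus strand, at chr9:3526002-3526251 for RFX3 and chr9:6015625-6015874 for RANBP6, written 5′ to 3′ with CpG dinucleotides in capitals.
RFX3: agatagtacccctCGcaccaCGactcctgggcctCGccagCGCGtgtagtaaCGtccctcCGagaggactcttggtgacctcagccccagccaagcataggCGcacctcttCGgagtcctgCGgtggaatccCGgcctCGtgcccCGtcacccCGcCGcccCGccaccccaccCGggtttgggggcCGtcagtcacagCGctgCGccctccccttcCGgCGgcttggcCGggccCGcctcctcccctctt
RANBP6: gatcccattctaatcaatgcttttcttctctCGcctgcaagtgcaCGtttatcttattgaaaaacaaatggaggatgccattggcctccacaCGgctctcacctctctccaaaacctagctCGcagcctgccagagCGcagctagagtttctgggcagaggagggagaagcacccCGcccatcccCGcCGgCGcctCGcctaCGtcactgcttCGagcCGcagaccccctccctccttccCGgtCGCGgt
These stretches hold 24 CpG dinucleotides in RFX3 and 16 in RANBP6, with a GC content of 70.4% and 58.4%. The letters TTCNNNGAA, the core of the site that STAT proteins bind, read the same on both strands. They were found in 0 of 16 windows of 300 bases around annotated starts of 9 neighbours, and in 0 of 4 such windows of JAK2. They occurred in 7.66% of all 35116 windows. CDC37L1 was not matched to a window. A missing match says only that these letters are not in these windows.

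The target was checked first. At the brighter JAK2 probe set the log2 intensity was 9.37, 9.89 and 10.09 with Jak2-9 and 10.06, 10.04 and 9.78 with Jak2-10, against 10.47, 10.40 and 10.68 in GFP cells and 10.47, 10.63 and 10.56 in Luc cells. Every knockdown array lay below every control array. JAK2 was at 63.1% of control with both hairpins together (log2 fold change -0.67 ± 0.11, SE, limma, adjusted p = 0.00260), at 59.3% with Jak2-9 (adjusted p = 0.00569) and at 67.0% with Jak2-10 (adjusted p = 0.0556). The dimmer JAK2 probe set was at 60.1% of control (adjusted p = 0.0320). Without Jak2-9 replicate 1, which was lowest at both, the brighter gave a log2 fold change of -0.56 (adjusted p = 0.000406) and the dimmer one of -0.52 (adjusted p = 0.000165). With Jak2-9 the brighter was then at 68.5% of control (adjusted p = 0.00927). The Jak2-10 comparison of JAK2 passed in 7 of 23 alternative settings (adjusted p between 0.00201 and 0.359).

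The arrays of a group correlated with r between 0.995 and 0.997, except that Jak2-9 replicate 1 correlated with the other Jak2-9 arrays at 0.985. On that array the control probe sets for ACTB gave a 3′ minus 5′ log2 difference of 0.42, while the other Jak2-9 arrays gave 0.13 and 0.15. It was 0.13 to 0.20 with Jak2-10 and 0.19 to 0.38 on control arrays. Calls that this array bears on, and the values of JAK2, RFX3, SMARCA2 and KDM4C, are also given without it. Among markers of the line, 6 of 7 erythroid and megakaryocytic genes were measured, with control means of 9.86 to 14.74 and no call in any comparison. Lymphoid markers (4 of 5 measured, 4.52 to 5.69) and fibroblast and epithelial markers (4 of 4, 4.24 to 5.21) lay around or below the median of all probe sets, 5.49.

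The neighbours ranged from among the dimmest to among the brightest probe sets of control HEL cells. A percentile places a probe set's brightness on the array and is no measure of how much RNA one gene makes against another. RCL1 stood at percentile 97.4 of all probe sets, RANBP6 at 90.2 and SMARCA2 at 86.4, all above the upper quartile of 8.28 on the log2 scale. CDC37L1 (72.0), KDM4C (66.8) and RFX3 (62.6) lay between the median and the upper quartile. KANK1 (23.3), GLDC (17.7), SLC1A1 (9.4) and VLDLR (3.7) lay below the median of 5.49. JAK2 itself stood at percentile 92.4. So, each read at its brightest probe set, 6 of the 10 neighbours were above the median of all probe sets and 4 below it. Taking the brightest of several probe sets favours the upper side, and the share of all genes above that median was not counted. The genes on either side of JAK2 stood far apart in brightness, RCL1 at percentile 97.4 and INSL6, a member of the insulin and relaxin family, at 7.4.

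**Figure D1:**
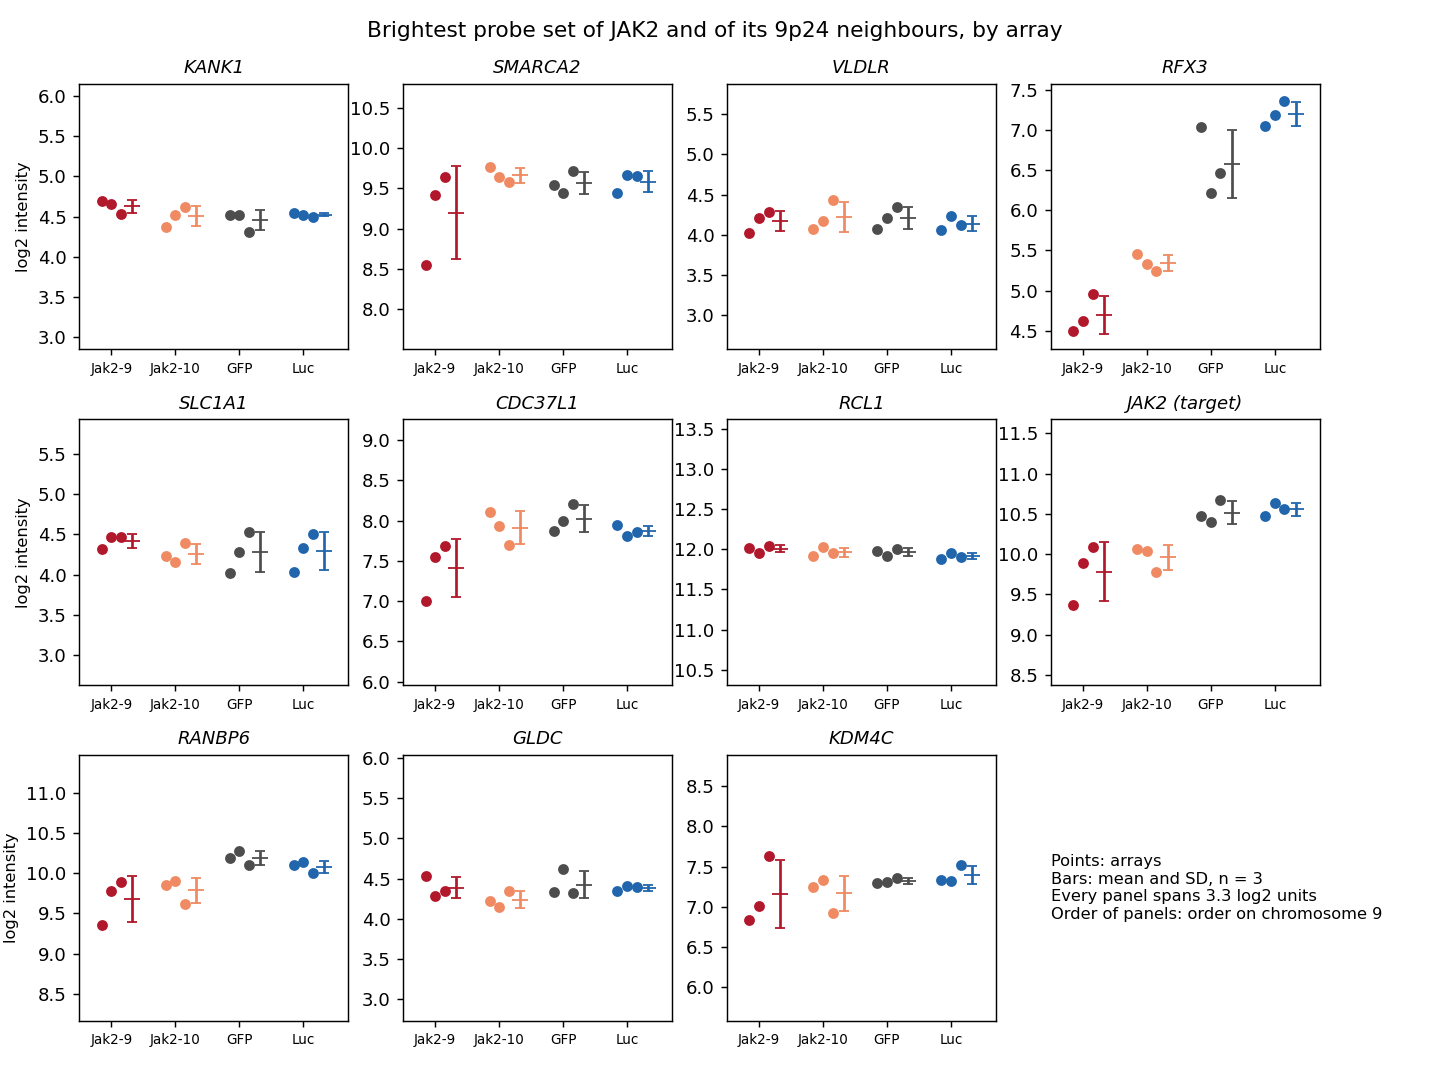
Log2 intensity of the brightest probe set of JAK2 and of its 10 neighbours on each of the 12 arrays, with Jak2-9 and Jak2-10 left of GFP and Luc; points are arrays, bars the mean and SD of 3 arrays, and every panel spans the same number of log2 units. RFX3 lies at 4.49 to 5.45 on knockdown arrays and 6.21 to 7.35 on control arrays, RANBP6 at 9.35 to 9.90 and 10.00 to 10.28, and RCL1 at 11.91 to 12.04 and 11.88 to 12.01.

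Of the transcription and chromatin genes, RFX3 was far lower with both hairpins, and SMARCA2 and KDM4C did not pass the test. RFX3 is a winged-helix transcription factor that binds X-box motifs in the promoters of genes for cilia. At its brighter probe set it had 4.49, 4.63 and 4.95 with Jak2-9 and 5.45, 5.33 and 5.25 with Jak2-10, against 7.04, 6.21 and 6.46 in GFP cells and 7.05, 7.19 and 7.35 in Luc cells. Each hairpin's 3 arrays lay below all 6 control arrays, and the highest knockdown value was 5.45 against a lowest control value of 6.21. In linear intensity the group means were 26.1 ± 4.4 with Jak2-9 and 40.7 ± 2.9 with Jak2-10, against 97.7 ± 29.8 in GFP cells and 147 ± 15.6 in Luc cells (SD, n = 3 each). RFX3 was at 27.5% of control with both hairpins together, a log2 fold change of -1.86 ± 0.13 (SE), at 21.9% with Jak2-9 and at 34.5% with Jak2-10. The lowest knockdown values were near the lower quartile of all probe sets (4.51). Leaving out each array in turn gave -1.95 to -1.75, and without Jak2-9 replicate 1 RFX3 was at 23.5% of control with Jak2-9. As RFX3 was chosen on this fall, the lack of overlap and this range describe the fall and do not test it.

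The other RFX3 probe set did not show this. Its values were 4.56, 4.37 and 4.44 with Jak2-9 and 4.45, 4.21 and 4.46 with Jak2-10, against 4.63, 4.55 and 4.60 in GFP cells and 4.38, 4.54 and 4.37 in Luc cells. Knockdown and control arrays overlapped, with a log2 fold change of -0.10 ± 0.07 (SE). On all 12 arrays this probe set was dim, at 4.21 to 4.63, around or below the lower quartile of 4.51. At this brightness a fall may pass unseen. With the mean of both probe sets the log2 fold change of RFX3 was -0.98.

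RFX3 was not chosen on the differences between the hairpins or between the controls, and these were tested. In Jak2-10 against Jak2-9 it was higher by 0.65 ± 0.18 (SE, 95% interval 0.27 to 1.04), with all 3 Jak2-10 arrays above all 3 Jak2-9 arrays, and did not pass over all probe sets (limma, adjusted p = 0.572). In Luc against GFP it was higher by 0.63 ± 0.18 (0.24 to 1.01), all 3 Luc arrays at or above 7.05 and the GFP arrays at 6.21 to 7.04, and did not pass either (adjusted p = 1.00). By limma 0 of the 22406 probe sets passed in these 2 comparisons (0% each). At an unadjusted p under 0.05, 8.56% of probe sets were called in Jak2-10 against Jak2-9 and 2.50% in Luc against GFP. The brighter RFX3 probe set was among them both times. In Jak2-10 against Jak2-9 the brightest SMARCA2 probe set and that of CDC37L1 were called as well. All 3 were lowest on Jak2-9 replicate 1. Without that array, Jak2-9 against control moved from -0.38 to -0.05 at SMARCA2 and from -0.54 to -0.33 at CDC37L1. At RFX3 it moved from -2.19 to -2.09. The control that is used moves the size of the RFX3 fall, to -1.55 against GFP alone and -2.18 against Luc alone.

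Over the 12 arrays, the 5 genes whose brightest probe set ran most like RFX3 were LINC00680 (Pearson r = 0.987), SCAF4 (0.986), CEP152 (0.983), SLC25A16 (0.981) and GOLGA8A (0.977). This likeness includes the difference between knockdown and control arrays, on which RFX3 was chosen, and the deviations from group means correlated at 0.644 to 0.817. JAK2 was the 76th gene in this order (r = 0.893) and RANBP6 the 215th (0.775), with 0.441 and 0.277 for their deviations from group means. The other 8 neighbours came later, with r between -0.508 (RCL1) and 0.566 (CDC37L1). These correlations share the same 12 arrays and are given as a description.

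SMARCA2, also known as BRM, is one of the alternative ATPases of SWI/SNF chromatin remodelling complexes. At the brightest of its 6 probe sets it had 8.54, 9.42 and 9.64 with Jak2-9 and 9.76, 9.64 and 9.58 with Jak2-10, against 9.54, 9.44 and 9.72 in GFP cells and 9.44, 9.67 and 9.65 in Luc cells. Jak2-9 replicate 1 was far below the other 11 arrays, which overlapped. Both hairpins together gave -0.15 ± 0.15 (SE, limma, adjusted p = 0.657), and without Jak2-9 replicate 1 the value was 0.02 (adjusted p = 0.952). The 6 probe sets lay between -0.19 and -0.01, and none passed.

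KDM4C is a histone lysine demethylase of the Jumonji family. At its brighter probe set it had 6.83, 7.01 and 7.63 with Jak2-9 and 7.25, 7.34 and 6.92 with Jak2-10, against 7.30, 7.31 and 7.36 in GFP cells and 7.34, 7.32 and 7.53 in Luc cells. The knockdown arrays spread over a wider range than the control arrays and overlapped with them. The log2 fold change was -0.19 ± 0.12 (SE, 95% interval -0.45 to 0.06, limma, adjusted p = 0.457), and the dimmer probe set gave -0.20 ± 0.08 (adjusted p = 0.232). Without Jak2-9 replicate 1 the brighter probe set gave -0.11 (adjusted p = 0.698).

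**Figure D2:**
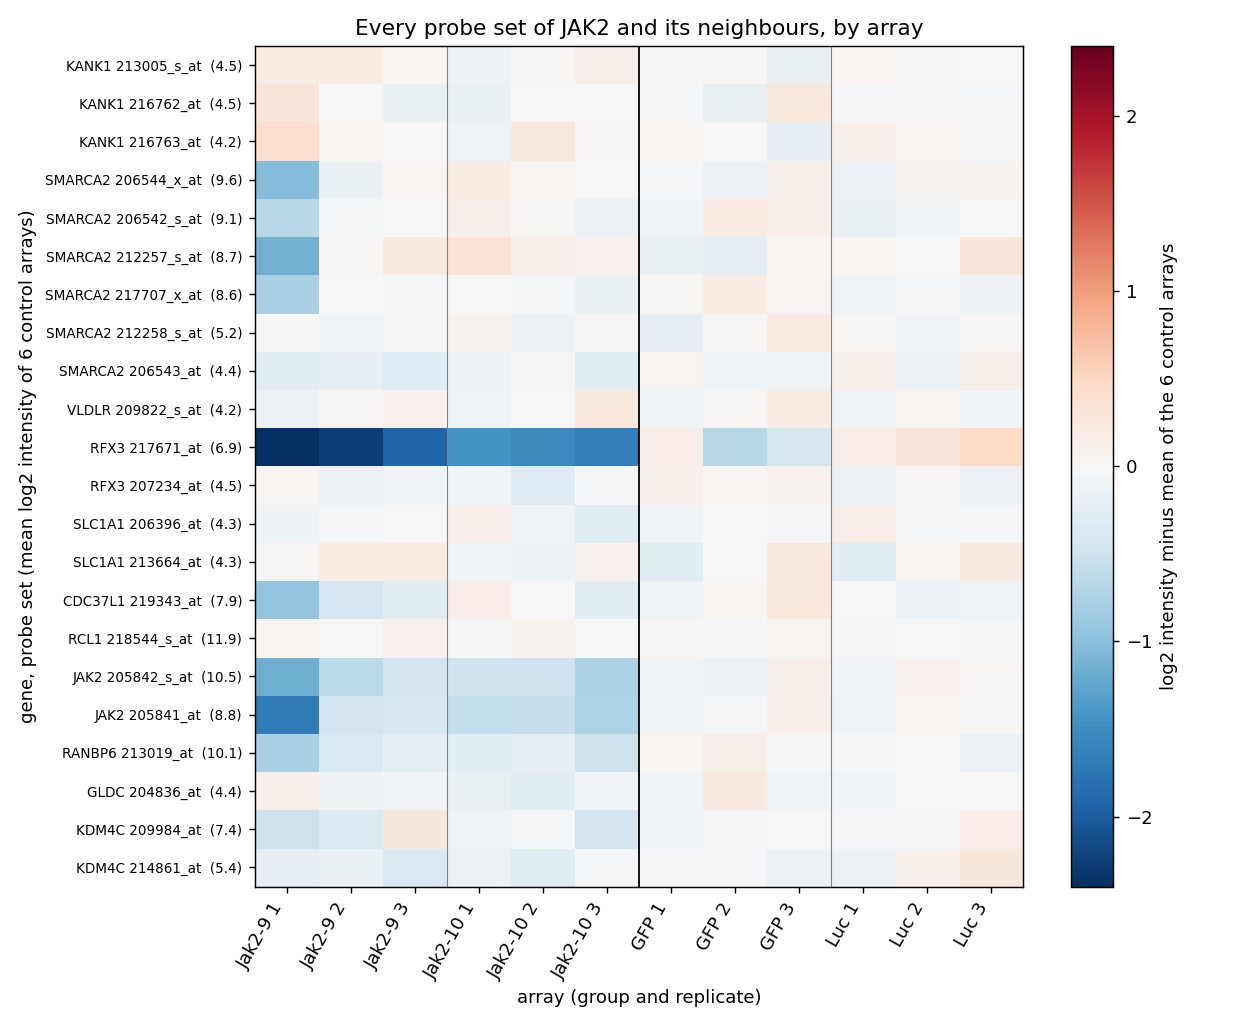
All 20 probe sets of the 10 neighbours and 2 of JAK2, in chromosome order, on each array; colour gives log2 intensity minus the mean of the 6 control arrays, and the number after each name is that mean. The RFX3 fall is carried by 1 of its 2 probe sets (-1.86 and -0.10), and the 4 SMARCA2 probe sets with a control mean above 8 are lowest on Jak2-9 replicate 1.

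Of the genes of import, folding and ribosome assembly, RANBP6 fell with both hairpins combined, CDC37L1 passed in the Jak2-9 comparison, and RCL1 stayed within a narrow range. RANBP6 is a Ran-binding protein of the importin beta family, which carries proteins into the nucleus. Its single probe set had 9.35, 9.78 and 9.90 with Jak2-9 and 9.85, 9.90 and 9.61 with Jak2-10, against 10.19, 10.28 and 10.10 in GFP cells and 10.10, 10.14 and 10.00 in Luc cells. The 6 knockdown arrays lay below the 6 control arrays, though the gap between 9.90 and 10.00 was narrow. Mean intensity was 828 ± 156 with Jak2-9 and 888 ± 91.6 with Jak2-10, against 1169 ± 71.5 in GFP cells and 1084 ± 54.6 in Luc cells (SD, n = 3 each). RANBP6 was at 75.6% of control with both hairpins together, a log2 fold change of -0.40 ± 0.09 (SE, 95% interval -0.60 to -0.20, limma, adjusted p = 0.0289). Single hairpins gave -0.46 with Jak2-9 (adjusted p = 0.0380) and -0.35 with Jak2-10 (adjusted p = 0.316), and the difference between the hairpins was 0.11 ± 0.13 (adjusted p = 0.767).

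The RANBP6 call was close to the threshold. It held in 13 of 22 alternative settings, with adjusted p between 0.00711 and 0.187, and its log2 fold change lay between -0.46 and -0.31 in all of them. Without Jak2-9 replicate 1 it still passed (-0.32, adjusted p = 0.0178). It was lost with GFP alone (adjusted p = 0.0842) or Luc alone (0.187) as control. The call with Jak2-9 by itself held in 11 of 23 settings and was lost without Jak2-9 replicate 1 (-0.30, adjusted p = 0.160). The call with both hairpins was also lost without GFP replicate 1 (0.0737) or 2 (0.0877), Jak2-10 replicate 1 (0.0571) or 3 (0.0805), or Luc replicate 1 (0.0723), 2 (0.0854) or 3 (0.0508).

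CDC37L1 encodes a relative of CDC37, the HSP90 cochaperone that hands protein kinases to the chaperone. Its probe set had 7.01, 7.55 and 7.68 with Jak2-9 and 8.10, 7.93 and 7.69 with Jak2-10, against 7.87, 8.00 and 8.21 in GFP cells and 7.94, 7.81 and 7.86 in Luc cells. The Jak2-9 arrays lay below all control arrays, and the Jak2-10 arrays overlapped with the controls. With Jak2-9 it fell to 68.9% of control (log2 fold change -0.54 ± 0.14, SE, limma, adjusted p = 0.0457), while Jak2-10 gave -0.04 ± 0.14 (95% interval -0.34 to 0.26). The difference between the hairpins, Jak2-10 minus Jak2-9, was 0.50 ± 0.16 (SE, 95% interval 0.15 to 0.84). Its unadjusted p was 0.00788 by limma, and over all probe sets this difference did not pass (adjusted p = 0.572). After adjustment a difference between the hairpins was therefore not shown. The Jak2-9 call leaned on replicate 1: without it the value was -0.33 (adjusted p = 0.190), and 9 of 23 alternative settings kept the call. Both hairpins together gave -0.29 ± 0.11 (adjusted p = 0.225).

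RCL1, which takes part in processing the RNA of the small ribosomal subunit, lies next to JAK2 and was the brightest of the 10 on the arrays. Its values were 12.01, 11.96 and 12.04 with Jak2-9 and 11.91, 12.02 and 11.95 with Jak2-10, against 11.97, 11.91 and 12.01 in GFP cells and 11.88, 11.96 and 11.90 in Luc cells. Knockdown and control arrays overlapped, and all 12 stood close together. The log2 fold change was 0.04 ± 0.06 (SE, 95% interval -0.08 to 0.17, limma, adjusted p = 0.754). JAK2, the target of the hairpins, was at -0.67 in the same comparison, and a shared change of the region was not tested.

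The 4 membrane, adaptor and metabolic genes were dim on all arrays, and none passed in any comparison. VLDLR, the very low density lipoprotein and reelin receptor, had 4.03 to 4.43 on knockdown arrays and 4.07 to 4.34 on control arrays, with a log2 fold change of 0.02 ± 0.08 (SE). SLC1A1, a glutamate transporter of neurons and epithelia, had 4.16 to 4.47 on knockdown arrays and 4.03 to 4.53 on control arrays at its brighter probe set. KANK1, an adaptor that regulates the actin cytoskeleton, had 4.37 to 4.69 and 4.31 to 4.54 on knockdown and control arrays, and its other 2 probe sets were as dim. GLDC, the decarboxylase of the mitochondrial glycine cleavage system, had 4.14 to 4.53 on knockdown arrays and 4.32 to 4.62 on control arrays. Detection calls were not used, and at this brightness a change in a low transcript could pass unseen.

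Among the 9 neighbours other than RFX3, then, 1 fell (RANBP6) and 0 rose in knockdown against control, where 2.51% of all probe sets fell and 0.629% rose (1.52% and 0.687% of the 11940 genes, each read at its brightest probe set). Their median log2 fold change was -0.09, with 5 below 0 and 4 above. Over all 11940 genes the median was 0.04, and 36.5% lay below 0. Without Jak2-9 replicate 1 the middle of the 9 values was 0.02 (SMARCA2), beside a median of 0.03 over all probe sets. Below it were then RANBP6 (-0.32), CDC37L1 (-0.19), GLDC (-0.13) and KDM4C (-0.11). Above it were RCL1 (0.04), VLDLR (0.06), KANK1 (0.06) and SLC1A1 (0.08). RANBP6 was the 1 of the 9 whose knockdown and control arrays did not overlap, and 2.13% of all probe sets had every knockdown array below every control array. With Jak2-9 2 of the 9 fell (CDC37L1, RANBP6) and 0 rose, where 2.62% of probe sets fell and 1.64% rose. Over the 11940 genes that balance turned, with 1.64% fallen and 2.09% risen. With Jak2-10 0 fell and 0 rose by limma, where 1.29% fell and 0.0848% rose (0.712% and 0.101% of genes), and RANBP6 was the 1 of the 9 with an unadjusted p under 0.05, as had 7.10% of probe sets. These 3 comparisons share the 6 control arrays. RFX3, chosen on its fall, had the largest fall of the 11 genes in knockdown against control, and JAK2, the target of the hairpins, the second largest. Their places follow from that choice and design. The largest fall among the other 9 was that of RANBP6.

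**Figure D3:**
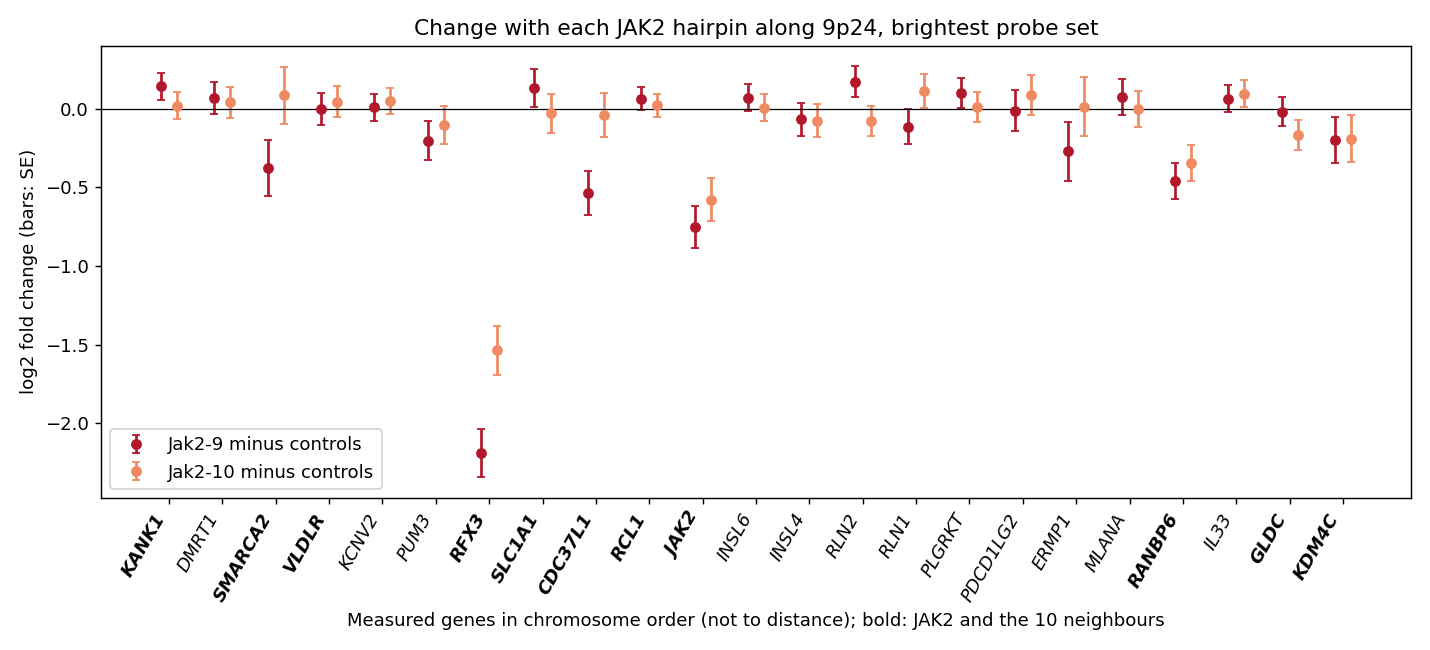
Log2 fold change with Jak2-9 and with Jak2-10 against the 6 control arrays for the 23 measured protein-coding genes from KANK1 to KDM4C, in chromosome order and not to distance; bars are standard errors, and bold names are JAK2 and the 10 neighbours. RFX3 stands at -2.19 and -1.54, JAK2 at -0.75 and -0.58, RANBP6 at -0.46 and -0.35, and RCL1 beside JAK2 at 0.06 and 0.02.

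RCL1 and INSL6, on either side of JAK2, had log2 fold changes of 0.04 and 0.04 and did not pass, while RFX3 and RANBP6 lie 8 and 12 genes away on opposite sides. The measured genes nearest to RFX3 on either side, PUM3 (an RNA-binding protein of the nucleolus) and SLC1A1, gave -0.15 ± 0.10 (SE, limma, adjusted p = 0.476) and 0.05 ± 0.10 (adjusted p = 0.837). The measured genes nearest to RANBP6, MLANA and IL33, gave 0.04 and 0.08. INSL6, SLC1A1, MLANA and IL33 all lay below the median brightness of control arrays, where a fall may pass unseen. Of the 12 other measured genes of the interval 0 passed in each of the 3 comparisons by limma, beside the shares given above for all genes. Their median was 0.04 and their range from -0.15 to 0.08 in knockdown against control. Of these 12 genes 8 lay below the median brightness. PLGRKT, a plasminogen receptor, had 10.36 ± 0.14 on knockdown arrays and 10.30 ± 0.12 on control arrays (SD, n = 6 each). ERMP1, a metallopeptidase of the endoplasmic reticulum, had 10.27 ± 0.41 on knockdown arrays and 10.39 ± 0.16 on control arrays, a log2 fold change of -0.13 that became 0.04 without Jak2-9 replicate 1. The hormone gene RLN2 had 8.88 ± 0.21 on knockdown arrays and 8.83 ± 0.10 on control arrays. PDCD1LG2, which encodes the PD-1 ligand PD-L2, was dim at 4.18 ± 0.24 on knockdown arrays and 4.14 ± 0.11 on control arrays.

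Jak2-9 replicate 1 held the lowest value of the 12 arrays for 6 of the 10 neighbours, each read at its brightest probe set. It held the lowest value for 20.6% of all probe sets. The 6 include RFX3, which was chosen on its fall, and VLDLR, which was dim on all arrays. Set against the other Jak2-9 arrays' mean, its difference was -0.98 at the brightest SMARCA2 probe set and -1.27 at another, -0.61 at CDC37L1, -0.49 at KDM4C, -0.48 at RANBP6 and -0.30 at RFX3. At JAK2 it was -0.62 and -1.27, and at RCL1 0.01. Over all probe sets the median deviation of that array was 0.05, and the range from the 5th to the 95th percentile was -0.77 to 0.59. The ACTB 3′ to 5′ difference was highest on that same array, and its part in these low values was not tested.

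**Figure D4:**
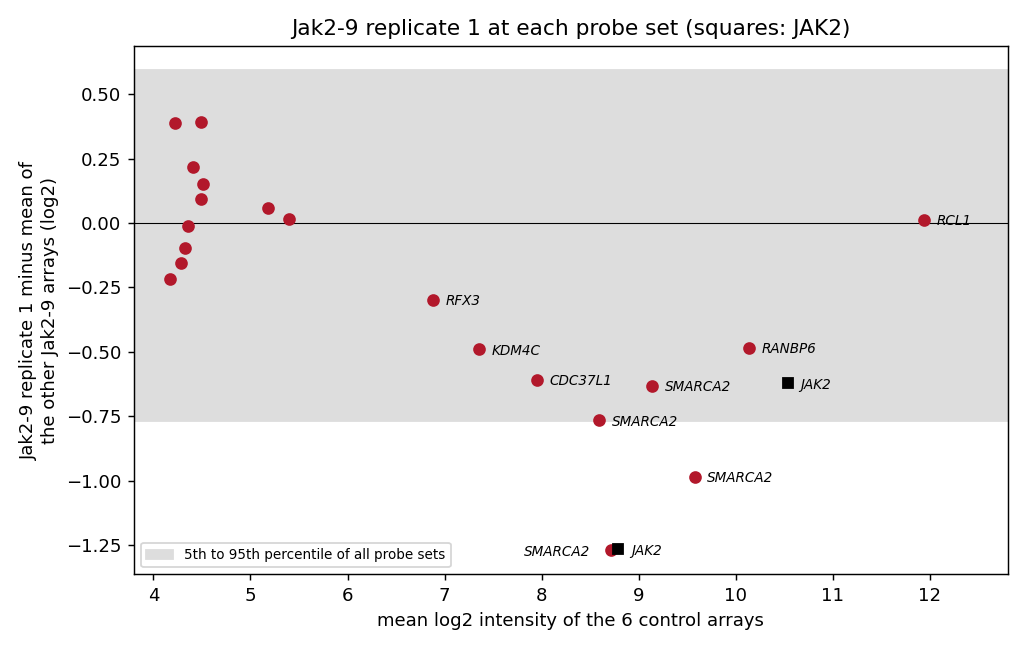
Log2 intensity on Jak2-9 replicate 1 minus the mean of the other Jak2-9 arrays, for 20 neighbour probe sets (circles) and 2 of JAK2 (squares), against the mean log2 intensity of the control arrays; grey marks the 5th to 95th percentile of all probe sets, -0.77 to 0.59. Probe sets of SMARCA2 and JAK2 reach -1.27, and RCL1 stands at 0.01.

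Relatives and working partners of the neighbours were taken from a list of 49 genes, 46 of them measured; the others were not analysed here. In knockdown against control 1 of the 46 fell and 0 rose, with a median of 0.02, where 1.52% of all genes fell and 0.687% rose. The one that fell was LRP8, a receptor of the same family as VLDLR that also binds reelin. It was at -0.56 ± 0.11 (SE, limma, adjusted p = 0.0103), with -0.71 for Jak2-9 (adjusted p = 0.00897) and -0.41 for Jak2-10 (adjusted p = 0.328). Without Jak2-9 replicate 1 LRP8 still passed (-0.45, adjusted p = 0.00135), and with GFP alone as control it did not (-0.36, adjusted p = 0.368). With Jak2-9 LRP8 fell and SMARCD1, a SWI/SNF subunit, rose (0.45, adjusted p = 0.0478), a call that held in 5 of 23 alternative settings and not without replicate 1 (0.27, adjusted p = 0.194). Of all genes 1.64% fell and 2.09% rose with Jak2-9. With Jak2-10 0 of the 46 passed by limma, where 0.712% of all genes fell and 0.101% rose. No gene of the RFX3 list passed in these comparisons. It holds the family members RFX1, RFX2, RFX5 and RFX7, the partners RFXANK and RFXAP, FOXJ1, which works with RFX factors in ciliated cells, and the cilia genes DYNC2LI1, IFT122 and BBS4. Knockdown values of RFX3's relatives included -0.22 ± 0.16 for RFX7 and 0.07 ± 0.07 for RFX5, and the cilia genes lay between -0.13 (DYNC2LI1) and 0.23 (IFT122). The other SWI/SNF ATPase SMARCA4 gave 0.02 ± 0.08, the RANBP6 relative IPO5 gave 0.03 ± 0.08, CDC37 gave 0.02 ± 0.07, and KDM4A and KDM4B gave -0.02 ± 0.11 and 0.27 ± 0.11 (adjusted p = 0.250 for KDM4B).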

How the data were processed

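RNA of 12 HEL samples was isolated with Trizol, amplified linearly and hybridised to 1-colour Affymetrix arrays, per the labels' protocols. The authors deposited linear intensity values, made with RMA per the submitters' processing notes, with no version stated. RMA corrects background, quantile normalizes and summarises probes, so fold changes at dim probe sets are understated. Log2 values had been planned for, so log2 was taken of the deposited intensity (11.2 to 36233.5) with no pseudocount. Of 22930 probe sets 524 controls were left out and 22406 tested; 19415 had 1 symbol, 125 several and 2866 are unnamed here, and 19290 were matched by Entrez identifier to the RefSeq table, with 0 symbols changed. Each of 11940 genes is represented by its brightest probe set. Array medians lay between 44.9 and 49.1, and precision is set by how many arrays there are.

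limma 3.58.1 in R 4.3.3 fitted 4 group means to 12 arrays (lmFit, eBayes), with Benjamini-Hochberg adjustment over all 22406 probe sets and a threshold of 0.05. Comparisons were both hairpins against both controls, each hairpin against both controls, Jak2-10 against Jak2-9, and Luc against GFP. The fit was tested on simulated data. The members and lists were chosen with earlier results of these data known. All members and JAK2 are named, with the other genes of the interval and of the relatives list by position, role or a passed test, and the 5 genes most like RFX3 by Pearson r. The labels do not say whether replicate numbers pair the samples, and the main fit did not pair them. Correlations of same-numbered residuals lay between -0.142 and 0.191 for replicate 1, -0.0865 and 0.163 for replicate 2, and -0.123 and 0.149 for replicate 3. Alternatives changed scaling, filtering, probe set summary, weights, controls and arrays.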

Additional observations from a re-analysis of the deposited data

How the results depend on the processing

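In both hairpins against both controls the log2 fold change of JAK2 stayed below 0 and past the threshold in all 22 alternatives (limma, adjusted p between 0.000109 and 0.0315). The count of 1 called neighbour in knockdown against control became 0 with GFP alone or Luc alone as control and lay between 0 and 1 on leaving out each array. The count of 2 with Jak2-9 became 1 with 1 probe set per gene and 1 with the replicate block, which kept RANBP6, and 0 with GFP alone, with Luc alone and with only the arrays compared. On leaving out each array it lay between 0 and 4. It was 4 without Jak2-9 replicate 3 (SMARCA2, CDC37L1, RANBP6 and KDM4C) and 0 without Jak2-9 replicate 1, Jak2-10 replicate 1 or 2, or any 1 of the 6 control arrays. With Jak2-10 the count of 0 lay between 0 and 1, with RANBP6 called without Jak2-9 replicate 1 (adjusted p = 0.0421). The replicate block changed no other call of a neighbour or of JAK2 in both hairpins against both controls; its numbers mark no shared culture in the labels.

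SMARCA2 in knockdown against control lay between -0.26 and 0.02 on leaving out each array, and was above 0 without Jak2-9 replicate 1 (0.017). VLDLR turned to -0.0025 with quantile normalization and -0.014 with GFP alone, and lay between -0.031 and 0.060 on leaving out each array. SLC1A1 turned to -0.0099 with the mean of its probe sets and lay between -0.014 and 0.113 on leaving out each array. None of these passed under any of these settings, and the cause was not tested. Dim probe sets limit what can be seen of VLDLR, SLC1A1, KANK1, GLDC, INSL6, MLANA, IL33 and the dimmer RFX3 probe set.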
